A study of Mus musculus with 6 samples.

Results

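Complement is a cascade of plasma and tissue proteins in which proteases cleave each other in sequence and deposit fragments of C3 and C4 on surfaces. The classical pathway starts with the C1 complex, in which the proteases C1r and C1s sit on C1q, and the lectin pathway starts with mannose-binding lectins or ficolins and the MASP proteases. Both cleave C4 and C2 to form a C3 convertase, while factor B and factor D build the convertase of the alternative pathway, and inhibitors such as C1 inhibitor and CD55 hold the cascade in check. The liver makes most of the circulating components, but chondrocytes and other connective tissue cells also transcribe them, and their genes are known to respond to inflammatory cytokines. Here 9 genes of this system were described, chosen by symbol from 55416 genes: the proteases C1ra, C1s1, C1rl and Masp1, the convertase components C4b, C3 and Cfb, and the inhibitors Serping1 and Cd55. All 9 passed the filter on low counts, which left 15269 genes for testing.

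The libraries came from wild-type primary mouse chondrocytes, cultured from knee joints of neonatal mice according to the labels, although the supplementary methods describe adult animals. Cells received a scrambled siRNA (siNC, 3 libraries) or an siRNA against Pkm2 (siPkm2, 3 libraries), with no cytokine named in the labels, to ask what loss of this glycolytic enzyme does to chondrocyte transcription. Titles name all 3 treated libraries siPKM2, while the genotype field reads PKM2, PKM3 and PKM4 knockdown in turn. No source says whether replicates were separate animals, so the p-values measure only the spread between these libraries.

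Total estimated counts per library lay between 22317065 and 25691096. Levels of the 3 replicates are given below in the order 1, 2, 3. Pkm, the targeted gene, read 2335, 2746 and 1674 CPM for siNC and 336, 541 and 309 CPM for siPkm2 (log2 fold change −2.53, SE 0.13, adjusted p 0.00932 in the edgeR quasi-likelihood test blocked on replicate number, and −2.51, adjusted p 0.0738, without the block). These are gene-level counts, which do not separate the PKM1 and PKM2 isoforms. CPM is the count scaled to a common library total after TMM correction. Replicate 2 stood apart in both groups. The summed TPM (a level that also accounts for gene length) of 11 chondrocyte markers was 18958, 4459 and 20467 in siNC and 16308, 5912 and 16357 in siPkm2, and all 11 were lowest in replicate 2 of both groups. A list of 15 inflammatory genes, chosen after replicate 2 was seen to differ, summed to 110, 35845 and 257 TPM in siNC and to 303, 33922 and 632 TPM in siPkm2. Markers of another origin were mixed: of 10 macrophage markers, Adgre1, Ptprc, Fcgr1, Tyrobp and Aif1 reached at most 0.219 CPM in any library, while the list as a whole summed to between 12 and 119 TPM in siNC and between 17.3 and 88.2 TPM in siPkm2, and Cd68 (55.5 and 33.4 CPM) and Cd14 (14.9 and 23.5 CPM) were highest in replicate 2. The 6 neutrophil markers summed to at most 7.66 TPM and the 5 endothelial markers to at most 0.69 TPM. The 7 synovial fibroblast markers summed to 812, 2578 and 1241 TPM in siNC and to 1235, 4950 and 2021 TPM in siPkm2, of which Ly6a alone made 1572 and 3686 TPM in replicate 2, and 3 of the 6 tested were highest in replicate 2 of both groups. The 5 osteoblast markers summed to 306, 40.3 and 197 TPM in siNC and to 119, 28.8 and 54.9 TPM in siPkm2, and the 5 muscle markers to at most 7.39 TPM. In bulk RNA, a change in the number of cells of one type and a change in RNA per cell cannot be told apart.

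The stretches just before the transcription starts are shown for the 5 members with an entry in the RefSeq promoter table (GRCm38.p6), because they include the members with the widest (C3) and the narrowest (Cd55) range between cultures. They are written 5′ to 3′ on the strand of the gene, end at the base before the start, and carry in capitals the match to TTGCNNAA, the core to which C/EBP factors, activators of acute-phase genes, bind. C3 lies at chr17:57228137-57228386, minus strand. C1s1 lies at chr6:124542360-124542609, minus strand, and C1rl at chr6:124492863-124493112, plus strand. C1ra (chr6:124512501-124512620, plus strand) and Cd55 (chr1:130462745-130462864, minus strand) are shown for the last 120 bases only. The RefSeq start used for C1ra lies downstream of the gene start in GENCODE M21 (124512405). The C1ra stretch shown therefore lies within the gene as placed there.
C3: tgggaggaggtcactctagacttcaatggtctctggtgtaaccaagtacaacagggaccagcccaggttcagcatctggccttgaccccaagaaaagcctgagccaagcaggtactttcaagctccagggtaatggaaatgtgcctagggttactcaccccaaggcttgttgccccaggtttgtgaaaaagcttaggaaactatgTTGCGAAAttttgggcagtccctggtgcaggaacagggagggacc
C1s1: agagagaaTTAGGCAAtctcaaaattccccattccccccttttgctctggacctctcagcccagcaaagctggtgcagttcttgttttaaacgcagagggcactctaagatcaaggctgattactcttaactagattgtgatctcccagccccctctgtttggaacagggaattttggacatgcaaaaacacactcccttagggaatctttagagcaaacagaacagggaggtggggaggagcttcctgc
C1rl: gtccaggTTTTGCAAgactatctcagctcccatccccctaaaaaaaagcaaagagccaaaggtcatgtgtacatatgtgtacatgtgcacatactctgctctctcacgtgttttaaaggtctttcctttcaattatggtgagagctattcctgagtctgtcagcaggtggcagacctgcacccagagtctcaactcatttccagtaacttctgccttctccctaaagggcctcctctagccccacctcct
C1ra: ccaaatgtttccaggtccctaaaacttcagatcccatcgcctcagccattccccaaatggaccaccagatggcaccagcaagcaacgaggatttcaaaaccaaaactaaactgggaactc
Cd55: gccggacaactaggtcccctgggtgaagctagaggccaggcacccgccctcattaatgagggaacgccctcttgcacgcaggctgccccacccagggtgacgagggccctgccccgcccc

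In the 250 bases before the start, searched on both strands, C3 held 1 match, from position −45 to −38 relative to the start, C1s1 held 1 from −242 to −235 and C1rl held 1 from −243 to −236. The letters TTGCNNAA occurred in 9.56% of 32851 promoter windows of the same length. The table also gives C1s1 a second start, within the gene, whose window (chr6:124542322-124542571) held no match to it. None of these 6 windows held TTCNNNGAA (the GAS element bound by STAT factors, in 7.02% of windows), the core of the interferon-stimulated response element (GAAA, any 2 bases, GAAA; in 2.98%) or the NF-kB motif (in 7.25%). A match describes the letters of the window and is not a mapped binding site.

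The 9 transcripts were detected in every library, and C3, Cfb and Serping1 differed far more between replicate numbers than between the siRNAs. All 9 were highest in replicate 2 of both groups, a pattern shown by 26.9% of the genes tested. Without the block, the quasi-likelihood test of edgeR (p-values adjusted after Benjamini-Hochberg) called 0 of the 9 at a fold over 2 and an adjusted p under 0.05, against 0% of all genes, and 2 of the 9 (C1rl and Cd55) had an unadjusted p under 0.05, against 17.6% of all genes. DESeq2 called 1 of the 9, C1rl, against 1.53% of the genes with a count, and returned no p-value for C3, which could not be called. Libraries of the same replicate number deviated alike from their group means. They were therefore treated as pairs, and the comparison within pairs is given as well. With the block, 2 of the 9 were called, Cfb higher and C1rl lower in siPkm2, against 5.83% of all genes (2.65% higher and 3.18% lower). At any fold, 6 of the 9 had an adjusted p under 0.05 with the block, 5 higher (Cfb, C4b, C1ra, Masp1 and Cd55) and 1 lower (C1rl), against 23.1% of all genes (12.3% higher and 10.8% lower). The median log2 fold change with the block was 0.39 over the 9 members and −0.01 over all genes tested. The calls with the block differed with the pairs included. With pair 1 or pair 3 left out, edgeR called 0 of the 9 and 0 genes in all. The lowest adjusted p of a member was then 0.0734 and 0.10, while 6 and 5 of the 9 had an unadjusted p under 0.05, against 25% and 23.1% of all genes. In these fits the log2 fold change was 0.91 and 1.25 for Cfb and −1.15 and −1.06 for C1rl. With pair 2 left out it called 2 of the 9 again, Cfb and C1rl, against 10.8% of all genes.

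**Figure D1:**
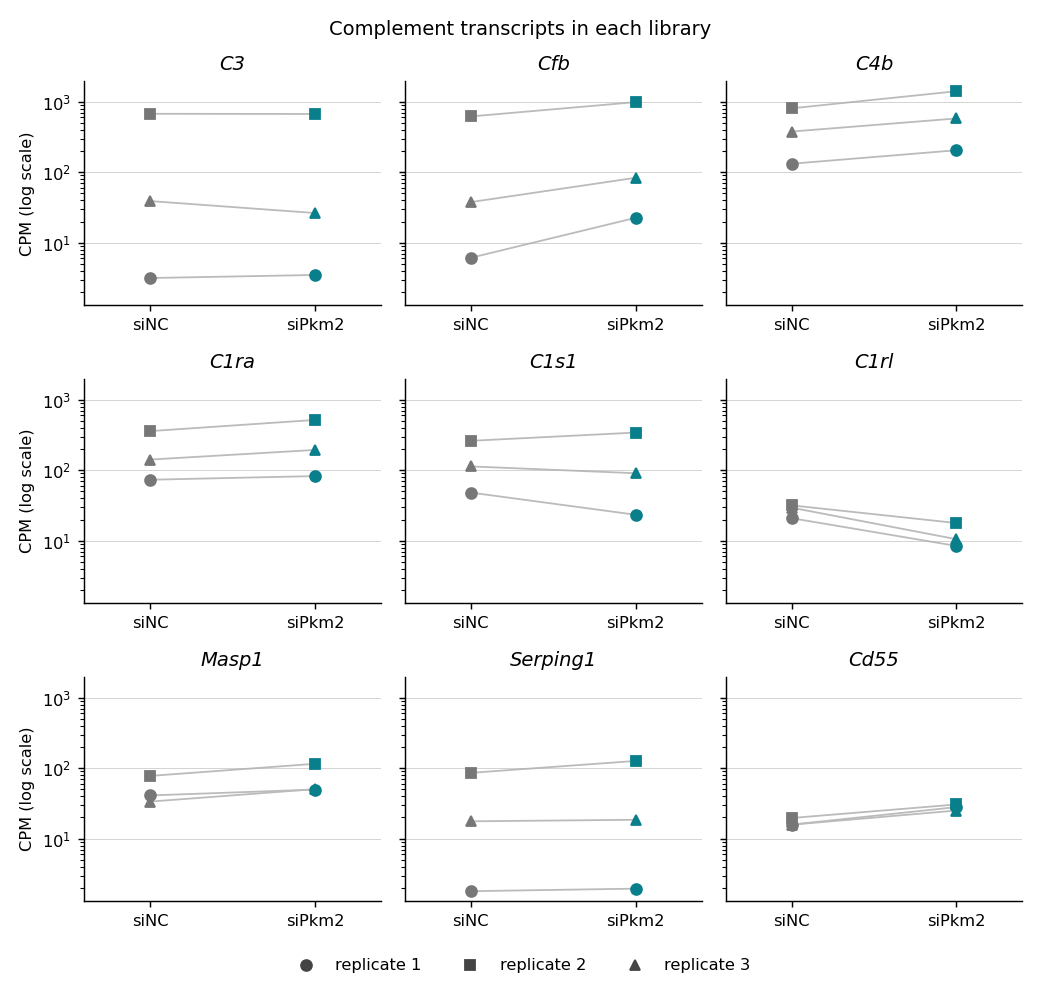
CPM (log scale) of each of the 9 complement transcripts in siNC (grey) and siPkm2 (teal) libraries; the symbol gives the replicate number and grey lines join libraries of the same number. C3, Cfb and Serping1 span the widest range between replicates, and only C1rl and Cd55 show groups that do not overlap.

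Among the proteases that start the cascade, C1ra, a mouse gene for C1r, had CPM values of 73.3, 359 and 142 in siNC and of 82.6, 517 and 194 in siPkm2. The groups overlapped, and siPkm2 was higher in all 3 pairs, by 1.13, 1.44 and 1.37 times. Without the block the log2 fold change was 0.47 (SE 0.80, adjusted p 0.816, edgeR quasi-likelihood test), and C1ra rose by 0.39 (SE 0.10, adjusted p 0.0491) with it. With the block and upper-quartile factors its value was 0.32 (adjusted p 0.0793, edgeR). C1ra lies on chr6:124512405-124523443 (GRCm38, plus strand) and shares 48.0% of its 50-base words with its copy C1rb, which had at most 2.66 counts in a library.

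C1s1, the gene for C1s, the protease that C1r activates and that cleaves C4 and C2, had pairs of both signs. It was at 48.2, 261 and 113 CPM in siNC and at 23.4, 342 and 90.6 CPM in siPkm2, so siPkm2 was lower in pairs 1 and 3 (0.484 and 0.800 times) and higher in pair 2 (1.31 times). Its log2 fold change was 0.11 without the block (SE 0.99, adjusted p 0.970) and −0.31 with it (SE 0.27, adjusted p 0.421, edgeR). In the 2 pairs other than replicate 2, the block gave −0.67 (SE 0.17, adjusted p 0.0199, edgeR), below the fold threshold. With pair 1 or pair 3 left out instead, the block gave 0.04 and −0.31 (adjusted p 0.930 and 0.629, edgeR). The ratio of C1s1 to C1ra TPM was 0.798, 0.804 and 0.854 in siNC and 0.314, 0.754 and 0.522 in siPkm2. In siNC the ratio hardly varied although C1ra ranged over 4.90 times and C1s1 over 5.42 times in CPM, and every siPkm2 library had a lower ratio than every siNC library. C1s1 (chr6:124530345-124542359, minus strand) shares 18.4% of its exonic bases with an antisense gene, Gm16567, which had at most 20.1 counts in a library, and 21.8% of its 50-base words with C1s2, which had at most 10.1.

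C1rl, which encodes a C1r-like protease, was the member that fell. It was at 20.9, 31.8 and 29.5 CPM in siNC and at 8.44, 17.8 and 10.5 CPM in siPkm2, with every siPkm2 library below every siNC library. Groups without overlap were found for 2 of the 9 members (C1rl and Cd55), against 24.3% of all genes tested. Within pairs siPkm2 was at 0.404, 0.561 and 0.357 times siNC, and lower in all 3 pairs, as were 30.6% of all genes. The log2 fold change was −1.16 (SE 0.32, adjusted p 0.164) without the block and −1.20 (SE 0.15, adjusted p 0.0133) with it by edgeR, −1.15 with DESeq2 without the block (adjusted p 0.0346), and −1.15 and −1.06 with the block and pair 1 or pair 3 left out (adjusted p 0.0734 and 0.10). C1rl (chr6:124493113-124510643), C1ra and C1s1 lie next to each other, and the ratio of C1rl to C1ra TPM was 0.267, 0.0822 and 0.194 in siNC and 0.0947, 0.0319 and 0.0503 in siPkm2, lower in siPkm2 in each pair.

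Masp1 encodes proteases of the lectin pathway. It was at 41.1, 77.7 and 33.6 CPM in siNC and at 49.7, 115 and 50.5 CPM in siPkm2, higher by 1.21, 1.48 and 1.5 times within pairs. Replicate 2 exceeded the mean of the other libraries by 2.08 times in siNC and 2.30 times in siPkm2. This was less than for C1ra and C1s1 but more than for C1rl (1.26 and 1.88 times). Without the block the log2 fold change was 0.50 (SE 0.45, adjusted p 0.620), and Masp1 rose by 0.48 (SE 0.10, adjusted p 0.0264, edgeR) with it. It lies on chr16:23449417-23520815, minus strand.

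Of the convertase components, C4b, the gene for complement C4, had the highest TPM of the 9 in replicates 1 and 3 of both groups. Its TPM was 52.9, 365 and 165 in siNC and 81.0, 615 and 243 in siPkm2. In CPM it was at 132, 807 and 378 in siNC and at 205, 1410 and 580 in siPkm2, higher by 1.55, 1.75 and 1.54 times within pairs. These were among the most even differences of the members, while the groups overlapped through the 6.11-fold range among siNC libraries. Unpaired, C4b had a log2 fold change of 0.74 (SE 0.84, adjusted p 0.710), and it rose by 0.69 (SE 0.09, adjusted p 0.0141, edgeR) with it. C4b (chr17:34728380-34743882, minus strand) shares 34.6% of its 50-base words with its near-identical copy C4a, so counts could be split between them. C4a held 0.376% of the counts of both.

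C3, from which all pathways release their active fragments, varied most between cultures of all members. It was at 3.16, 675 and 39.1 CPM in siNC and at 3.50, 671 and 26.4 CPM in siPkm2, a range of 213 times within siNC and 192 times within siPkm2. Within pairs siPkm2 was at 1.11, 0.994 and 0.676 times siNC in CPM, so the sign was not shared. Replicate 1 had only 79 and 75 estimated counts of C3, and the ratio of pair 1 was 0.949 in counts and 1.38 in TPM. For C3 the log2 fold change was −0.03 (SE 2.11, adjusted p 0.996) without the block and −0.17 (SE 0.16, adjusted p 0.439, edgeR) with it. Without siNC replicate 2 alone the unpaired value became 3.47, and without siPkm2 replicate 2 alone −3.99. C3 lies on chr17:57203970-57228136, minus strand.

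Cfb encodes factor B, the protease of the alternative pathway convertase. It was at 6.13, 619 and 37.7 CPM in siNC and at 22.6, 988 and 83.5 CPM in siPkm2. It had the same order of cultures as C3, but siPkm2 was higher in all 3 pairs, by 3.69, 1.60 and 2.21 times, with the smallest ratio in replicate 2. Unpaired, Cfb had a log2 fold change of 0.72 (SE 1.81, adjusted p 0.882), and it rose by 1.20 (SE 0.23, adjusted p 0.0237, edgeR) with it. With pair 2 left out the blocked value was 1.44 (adjusted p 0.00127), and with pair 1 or pair 3 left out it was 0.91 and 1.25 (adjusted p 0.0784 and 0.122). The ratio of Cfb to C3 TPM was 5.18, 2.0 and 1.84 in siNC and 12.1, 3.14 and 5.36 in siPkm2, higher in siPkm2 in each pair. Cfb (chr17:34856374-34862518, minus strand) shares 79.5% of its exonic bases with Gm20547 on the same strand, which held 34.4 counts in siNC replicate 2 and 0 in the other libraries.

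**Figure D2:**
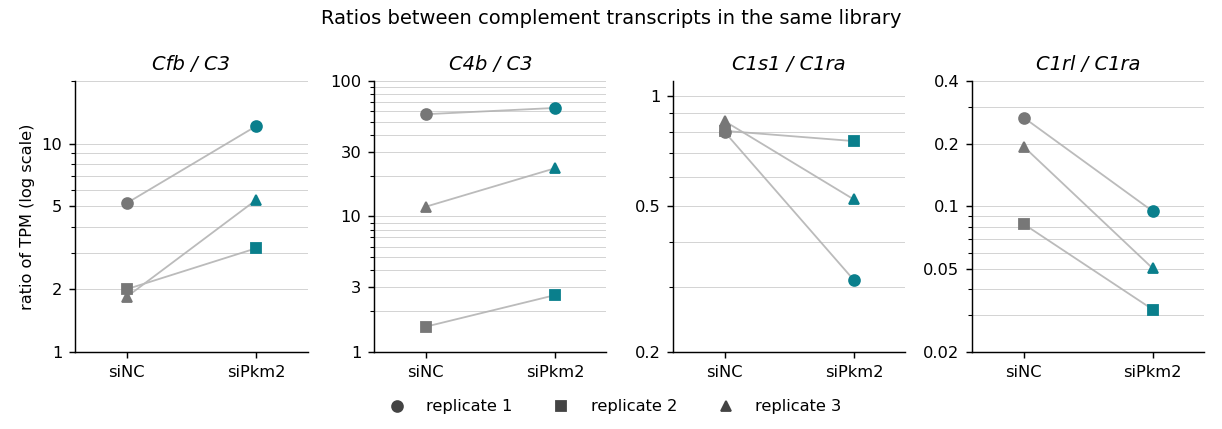
Ratios of TPM (log scale) between pairs of complement transcripts in the same library, for siNC (grey) and siPkm2 (teal); lines join libraries with the same replicate number. Cfb/C3 and C4b/C3 are higher and C1s1/C1ra and C1rl/C1ra are lower in siPkm2 in each of the 3 pairs. C4b/C3 is spread over a range from 1.53 to 63.3.

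Serping1 encodes C1 inhibitor, the serpin that inactivates C1r, C1s and the MASP proteases. It was at 1.80, 85.9 and 17.6 CPM in siNC and at 1.96, 127 and 18.6 CPM in siPkm2, a range of 47.7 and 64.7 times within groups. Replicate 1 had only 45 and 42 estimated counts. Within pairs siPkm2 was at 1.09, 1.47 and 1.05 times siNC in CPM, and at 0.977 times in pair 3 in TPM. Its log2 fold change was 0.48 (SE 1.59, adjusted p 0.910) without the block and 0.29 (SE 0.13, adjusted p 0.166, edgeR) with it, and 0.08 (adjusted p 0.734) with the block and pair 2 left out. Relative to its target C1s1, Serping1 TPM was 0.0682, 0.599 and 0.282 times in siNC and 0.165, 0.635 and 0.347 times in siPkm2. It lies on chr2:84765387-84775444, minus strand.

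Cd55 encodes decay-accelerating factor, a membrane inhibitor that dissociates C3 convertases on the cell's own surface. It was at 15.9, 19.7 and 15.8 CPM in siNC and at 28.1, 30.6 and 25.1 CPM in siPkm2, so that every siPkm2 library lay above every siNC library. It had the narrowest range of all members within groups (1.24 and 1.22 times), and replicate 2 exceeded the mean of the other libraries by only 1.24 and 1.15 times. Within pairs siPkm2 was higher by 1.77, 1.56 and 1.59 times. The log2 fold change was 0.71 (SE 0.17, adjusted p 0.136) without the block, and Cd55 rose by 0.71 (SE 0.10, adjusted p 0.0142, edgeR) with it, under the fold threshold. Of the 9 members, 6 were higher in siPkm2 in all 3 pairs (Cfb, C4b, C1ra, Masp1, Serping1 and Cd55), against 30.5% of all genes tested. Cd55 lies on chr1:130439027-130462744, minus strand, and no count fell on its copy Cd55b.

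**Figure D3:**
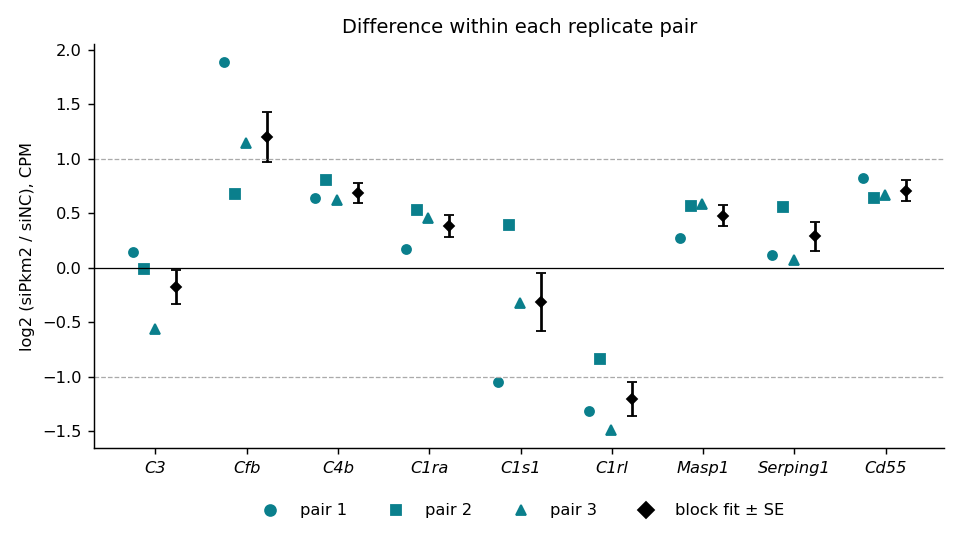
Log2 ratio of siPkm2 to siNC CPM within each replicate pair (teal symbols) and the edgeR estimate with the replicate block (black diamond, ± SE) for the 9 complement transcripts; dashed lines mark a fold of 2. C4b and Cd55 show the most even pairs, Cfb lies above 0 and C1rl below 0 in all 3, and C1s1 has pairs on both sides.

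Seen per length, the composition of the 9 transcripts differed between cultures. Their summed TPM was 170, 1669 and 427 in siNC and 204, 2368 and 546 in siPkm2. Cfb contributed 2.83%, 28.5% and 6.01% of it in siNC and 7.62%, 31.1% and 10.5% in siPkm2, and had the highest TPM of the 9 in replicate 2 of both groups. C3 contributed 0.546%, 14.3% and 3.27% in siNC and 0.629%, 9.91% and 1.96% in siPkm2, and was the lowest of the 9 in replicate 1. Over the 6 libraries, Pearson's r of log2 CPM among C3, Cfb, C4b, C1ra, C1s1 and Serping1 lay between 0.877 and 0.985, whereas C1rl and Cd55 had r = −0.69 with each other. These values are a description over 6 libraries that share 3 replicate numbers, in which every member was highest in replicate 2.

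By the same measure, over genes of at least 10 CPM on average, C3 was most like Aldh1l1 (r = 0.998), Flnc (0.995) and Bcl6 (0.995). Serping1 was most like Hp, the gene for the acute-phase protein haptoglobin (0.996), Slc5a3 (0.994) and Pcx (0.993). Hp was at 11.1, 372 and 77.2 CPM in siNC and at 7.37, 629 and 93.0 CPM in siPkm2. C4b was most like Cdip1 (0.998), Fnbp1 (0.996) and Jmjd8 (0.991).

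Genes that respond to interferons and inflammatory cytokines give the setting of each library. A list of 25 interferon-stimulated genes summed to 134, 4125 and 213 TPM in siNC and to 2762, 7815 and 2126 TPM in siPkm2. Isg15, a ubiquitin-like protein induced by interferons, was at 3.40, 205 and 6.39 CPM in siNC and at 228, 400 and 123 CPM in siPkm2 (log2 fold change with the block 3.72, adjusted p 0.0593, edgeR). Il6, an inflammatory cytokine, was at 0.12, 38.6 and 0.48 CPM in siNC and at 6.01, 96.3 and 8.36 CPM in siPkm2 (2.62, adjusted p 0.0426). In the same pairs 1 and 3, C3 was at 1.11 and 0.676 times, Serping1 at 1.09 and 1.05 times and Cfb at 3.69 and 2.21 times siNC in CPM. All 25 interferon-stimulated genes and all 14 inflammatory genes tested were highest in replicate 2 of both groups, against 26.9% of all genes tested. Both lists were chosen with earlier results of these data known, the inflammatory one after replicate 2 was seen to differ. The count is therefore a description and not a test. Whether these lists have a part in the levels of the complement genes was not tested.

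**Figure D4:**
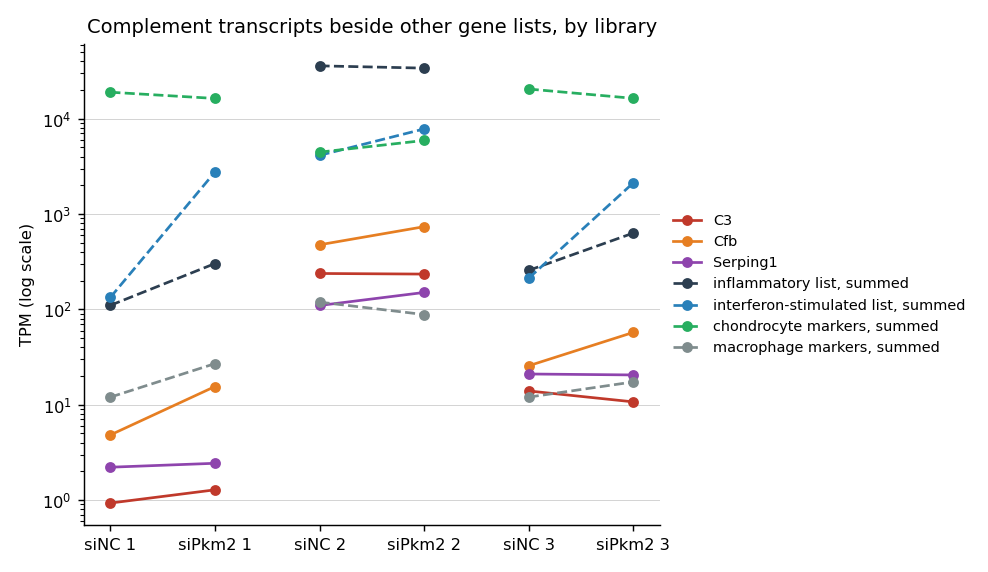
TPM (log scale) of C3, Cfb and Serping1 (solid lines) and summed TPM of 4 gene lists (dashed lines) in each library, with siNC and siPkm2 libraries of the same replicate number joined. Complement and inflammatory transcripts are highest and chondrocyte markers lowest in replicate 2 of both groups. The interferon-stimulated list is higher in siPkm2 in every pair. C3 TPM is at 1.38, 0.986 and 0.768 times siNC in pairs 1, 2 and 3, with few counts in pair 1.

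Beyond the members, 45 further genes of the complement system were read from a list ordered by role, of which 15 were tested. Without the block edgeR called 0 of the 24 tested genes of the whole list, and 4 had an unadjusted p under 0.05 (17.6% of all genes). DESeq2, run without that filter, called 3 of the 50 listed genes with a count (C1rl, Cd59a and Susd4), against 1.53% of all genes with a count. With the block edgeR called 6 of the 24: Cfb and Csmd1 higher, and C1rl, Cfd, Cd59a and Susd4 lower, against 5.83% of all genes. Of the 54 genes listed, 30 were not tested, and Cd55b, C8a, C8b and Vsig4 had no count in any library.

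The recognition molecules that start the cascade were nearly absent. C1qa, C1qb and C1qc were at 0.89 TPM or less in every library, and of the 9 genes only Fcna, the gene for ficolin A, was tested (1.16, 3.59 and 0.50 TPM in siNC and 0.48, 0.70 and 0.25 TPM in siPkm2, log2 fold change with the block −1.64, adjusted p 0.0504, edgeR). C1ra and C1s1, whose products bind C1q, were at 14.7 TPM or more in every library. Of the initiating proteases outside the members, C1s2 was the most abundant on average, at no more than 0.28 TPM. Among the terminal components that form the membrane attack complex, only C8g was tested (log2 fold change with the block −0.71, adjusted p 0.178, edgeR), and Hc, the gene for C5, was at most at 0.44 TPM. Of the receptors, Cd93 was the only gene tested, and Itgb2 was the most abundant on average, at no more than 1.04 TPM.

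Of the other convertase genes, C2, the partner of C4, was highest in replicate 2 of both groups, as Cfb was. It was at 2.33, 52.5 and 1.94 TPM in siNC and at 3.53, 58.3 and 4.11 TPM in siPkm2 (log2 fold change with the block 0.61, adjusted p 0.0659, edgeR). Cfd, the gene for factor D, which cleaves factor B, fell while Cfb rose. Cfd was at 3.18, 3.47 and 34.3 TPM in siNC and at 1.02, 1.32 and 12.1 TPM in siPkm2 (−1.44, adjusted p 0.0174, edgeR with the block). Its highest library was replicate 3 in both groups, unlike any member.

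The regulators went both ways. Clu, the gene for clusterin, was the most abundant soluble regulator on average, at 23.4, 187 and 126 TPM in siNC and 23.9, 261 and 89.3 TPM in siPkm2 (log2 fold change with the block 0.05, adjusted p 0.858, edgeR). On the membrane, Cd59a, which blocks assembly of the attack complex, fell from 10.3, 6.07 and 7.25 TPM in siNC to 4.46, 3.56 and 2.39 TPM in siPkm2 (−1.25, adjusted p 0.0243, edgeR with the block). Cd55 and Cd59a thus moved in opposite directions.

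Cr1l, the rodent convertase regulator Crry, was the most abundant membrane regulator, at 50.3, 44.8 and 48.7 TPM in siNC and 67.1, 49.9 and 57.7 TPM in siPkm2 (log2 fold change with the block 0.31, adjusted p 0.0463, edgeR). Susd4 fell (−2.13, adjusted p 0.0195) and Csmd1 rose (2.38, adjusted p 0.0211) from levels of 1.78 TPM or less in every library. Both encode membrane proteins with complement control domains.

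**Figure D5:**
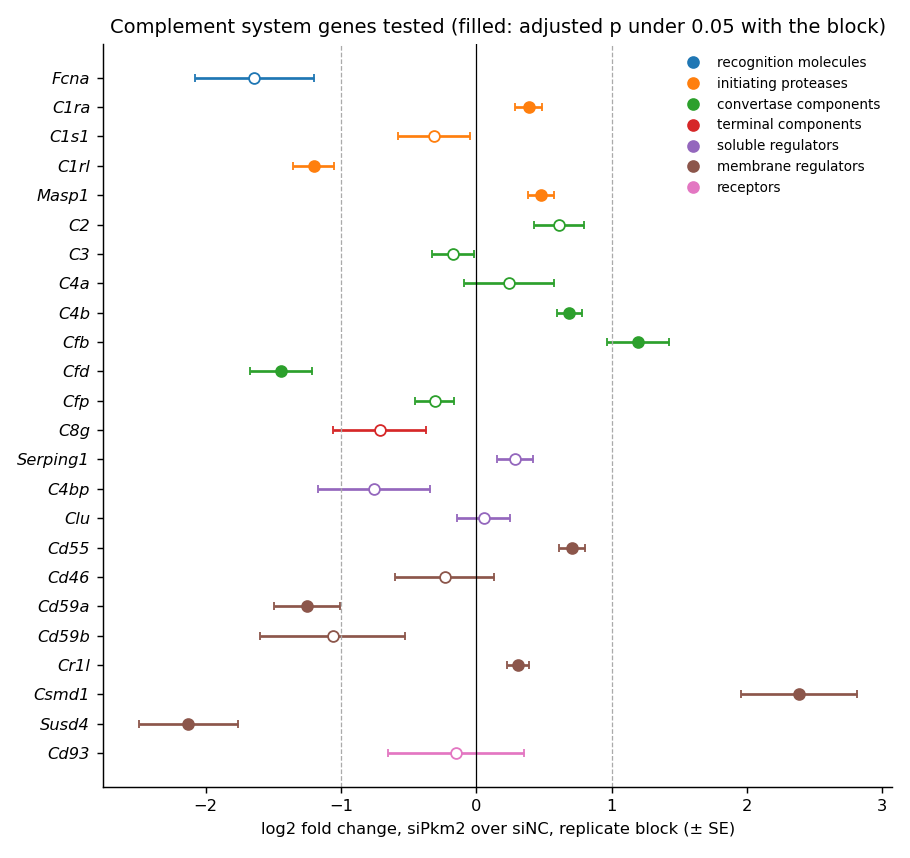
Log2 fold change of siPkm2 over siNC with the replicate block (± SE, edgeR) for the 24 tested genes of the complement system, coloured by role; filled symbols have an adjusted p under 0.05 and dashed lines mark a fold of 2. Called genes lie on both sides of 0, with Cfb and Csmd1 higher and C1rl, Cfd, Cd59a and Susd4 lower.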

How the data were processed

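The authors deposited, for each of the 6 libraries, gene-level estimated counts, 30.0% to 34.2% of whose non-zero values were fractional, and TPM values, a unit already scaled for gene length and library total. The submitters' processing notes name edgeR and the build mm9 without a role, and the aligner, the counting tool and the strand setting are not given in the sources used here. Columns with the fold change (ratio), log2 fold change and p-values of the authors' own comparison were not used. Gene positions, exons and transcripts came from GENCODE M21 (GRCm38), in which 52083 of the identifiers (94.0%) were found.

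Estimated counts were rounded and fitted with edgeR 4.0.16 under R 4.3.3 (filterByExpr, TMM factors, quasi-likelihood F test, Benjamini-Hochberg adjustment over 15269 genes). A gene was called at a fold over 2 and an adjusted p under 0.05. The standard error is the absolute log2 fold change divided by the square root of F. Libraries of both groups are numbered 1 to 3 in the labels. Pairing by number was inferred from these same data. Deviations from the group means correlated at 0.664, 0.756 and 0.646 between libraries of the same number and at 0.158 or less otherwise. Without pairing, groups of 3 allow no two-sided exact permutation p under 0.1, and for 3 pairs this floor is higher. As alternatives, RLE or upper-quartile scaling, DESeq2 1.42.0, other filters, limma 3.58.1 on log2(TPM + 1), leaving out each library or pair, and the block were tried. Settings that combine the block with other factors, with pair 1 or pair 3 left out or with no fold threshold were chosen after seeing the data. The fit was also run on data simulated with known fold changes. Replicate effects there were drawn at random and not taken from these libraries. That run therefore does not show how the fit performs here.

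The text names all 9 members, Pkm, the complement genes called with or without the block, the most abundant further gene of each role, those without counts, and the 3 genes most correlated with C3, Serping1 and C4b (pseudocount 0.5 CPM). C1q, Hc, C2, C8g, Cd68, Cd14, Hp values and the macrophage markers near 0 were added for context. The members and lists were chosen with earlier results of these data known. A gene of the complement list is not reported here.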

Additional observations from a re-analysis of the deposited data

How the results depend on the processing

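Without the block the 9 members gave 0 calls under RLE and upper-quartile factors, no filter, a floor of 10 counts per library, limma on log2(TPM + 1) and each library left out. DESeq2 called 1 member, 3 complement genes and 430 genes in all. Over all genes, upper-quartile factors gave 3 calls, no filter 9, a floor of 10 counts per library 3 and limma 1, and leaving out single libraries gave between 0 and 105, the highest without siNC replicate 2. With the replicate block the calls were 2 members, 6 complement genes and 890 genes, with DESeq2 and the block 2, 6 and 1017, with the block and RLE factors 2, 6 and 900, with the block and upper-quartile factors 2, 7 (Fcna added) and 935, and with the block at any fold 6, 11 and 3524. Leaving out pair 2 gave 1, 1 and 507 calls without the block and 2, 6 and 1639 with it. With the block and pair 1 or pair 3 left out there were 0 calls, and the cause was not tested.

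The log2 fold change of C1s1 changed sign to −0.35 with limma, −0.31 with the block, −0.31 with DESeq2 and the block, −0.51 with pair 2 left out, −0.67 with the block and pair 2 left out, −0.31 and −0.38 with the block and RLE or upper-quartile factors, and −0.31 with the block and pair 3 left out. Single libraries left out moved the unpaired log2 fold changes through 0 for C3 (−3.99 to 3.47), Cfb (−2.05 to 4.06), C4b (−0.16 to 1.52), C1ra (−0.46 to 1.30), C1s1 (−1.30 to 0.92), Masp1 (−0.016 to 0.95) and Serping1 (−1.77 to 2.34), but not for C1rl (−1.53 to −0.95) or Cd55 (0.64 to 0.82). C3 was at 0.058 with the block and pair 3 left out. The cause of these shifts was not tested. The standard error of C3 on the log2 scale was 2.11 unpaired and 0.16 with the block in the same libraries. Groups of 3 libraries limit what can be told.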
